A study of Mus musculus with 8 samples.

Results

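Megakaryocyte-primed wells were single sorted marrow cells chosen by 2 transcripts, Pf4 and Itga2b. A well was a member when its counts of Pf4 and Itga2b summed to 3 or more and its counts of the erythroid genes Car1, Gata1 and Klf1 summed to less than 3. Of 2727 wells with at least 1000 counts and 500 detected genes, 110 were members, 2617 formed the rest, and 83 were erythroid-primed wells, with a sum of Car1, Gata1 and Klf1 of 3 or more, which belong to the rest; 12 of these also reached the Pf4 and Itga2b minimum. The members made 4.03% of the kept wells, and every one of them had an index-sort record.

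The wells held LSK cells, lineage-negative marrow cells carrying Sca1 and cKit that include stem cells and early progenitors, from Dach1-GFP reporter mice aged 8 to 16 weeks. In these C57BL/6-derived mice, made from 1 targeted embryonic stem cell clone, the Dach1 locus carries a biotin tag and an IRES-GFP, so GFP reports Dach1 transcription in every group compared here. Libraries were made by CEL-seq2, which copies the 3' ends of polyadenylated RNA, on 8 plates: LC187 to LC190 and LCE407 to LCE410. No treatment was given, and the labels do not tie a plate to an animal, so the p-values below rest on how plates vary, part of which may be technical.

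Megakaryocytes are the marrow cells that shed platelets, and part of the stem cell compartment is known to express their genes before commitment. Pf4 encodes a chemokine stored in platelet granules, and Itga2b encodes CD41, the alpha subunit of the platelet fibrinogen receptor, which is also carried by early progenitors. GATA factors act with ETS factors such as FLI1 at megakaryocyte genes.

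The promoters of the 2 genes that chose the members are shown with the letters of both factor families in capitals: GATAA or its reverse complement for GATA factors, and GGAAG or its reverse complement for ETS factors. The sequences are RefSeq promoters of GRCm38.p6, from 250 bases before to 50 after the gene's start, read along the gene's strand. The Itga2b promoter lies on the minus strand at chr11:102469834-102470133, and the Pf4 promoter on the plus strand at chr5:90772185-90772484.
Itga2b: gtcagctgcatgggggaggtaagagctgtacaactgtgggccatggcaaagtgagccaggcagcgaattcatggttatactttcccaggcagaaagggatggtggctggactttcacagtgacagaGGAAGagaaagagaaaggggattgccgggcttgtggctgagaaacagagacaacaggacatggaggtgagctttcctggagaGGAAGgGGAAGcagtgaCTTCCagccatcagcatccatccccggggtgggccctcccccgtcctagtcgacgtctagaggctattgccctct
Pf4: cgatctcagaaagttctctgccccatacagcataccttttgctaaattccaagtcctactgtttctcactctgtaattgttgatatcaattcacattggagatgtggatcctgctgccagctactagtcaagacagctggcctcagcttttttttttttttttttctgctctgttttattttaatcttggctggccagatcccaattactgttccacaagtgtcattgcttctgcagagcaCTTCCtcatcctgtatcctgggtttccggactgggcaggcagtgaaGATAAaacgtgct

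The Itga2b window held 4 ETS matches and 0 GATA matches, and the Pf4 window held 1 ETS match and 1 GATA match, counted on both strands; no capital run is shared by the 2 motifs. Of 32851 promoters of the same length, 71.4% held the ETS letters, 25.4% the GATA letters and 17.2% both. A match is a description of the letters, not of binding.

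The 2 transcripts were unevenly spread over the members. Itga2b was detected in 102 of 110 members and Pf4 in 40, with 32 members holding both. Members held 39.2% of all Itga2b counts and 58.1% of all Pf4 counts, and a single well of plate LC190 held 26.5% of all Pf4 counts (133 of Pf4 beside 26 of Itga2b). The sum of both genes was 3 in 49 members, 4 in 30, 5 in 14 and above 5 in 17. These values chose the members and are given without a test. In the other direction of the rule, 66 members had no count of Car1, Gata1 or Klf1, 31 had 1 count and 13 had 2.

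Members were more frequent on the LC plates, where wells were more deeply counted. They made 4.39%, 6.74%, 5.87% and 8.80% of the kept wells of LC187, LC188, LC189 and LC190, and 2.05%, 0.296%, 2.35% and 1.75% of those of LCE407, LCE408, LCE409 and LCE410. LCE408 gave a single member. Median counts per well were 13676 to 15024 in members against 11289 to 13094 in the rest on LC plates, and 6890 to 11930 in members against 5627 to 7495 in the rest on LCE plates. When every well was thinned to 3000 counts, at least 1 count of either gene was left in 10.8% of LC and 11.2% of LCE wells, against 33.6% and 21.4% without thinning. At the rule's minimum of 3 counts, the thinned shares were 0.735% of LC wells (10 wells) and 0.378% of LCE wells (5 wells), against 7.18% and 1.76% without thinning. The part of depth in the difference between the plate sets was not settled by these few wells.

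**Figure D1:**
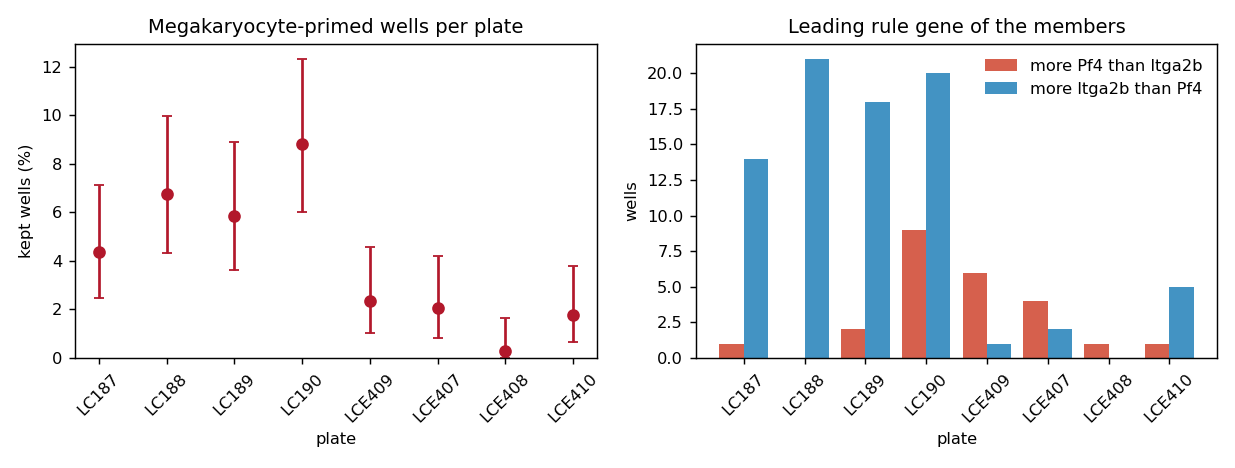
Left, the share of kept wells on each plate that met the rule, with exact 95% binomial intervals that cover counting error only. Right, the number of members with more Pf4 than Itga2b counts (red) and with more Itga2b than Pf4 counts (blue); Itga2b led in 73 of 88 LC members and Pf4 in 12 of 22 LCE members.

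The leading gene differed between the plate sets. On LC plates 12 members had more Pf4 than Itga2b counts and 73 had more Itga2b; on LCE plates the numbers were 12 and 8. A test of Pf4-led against Itga2b-led members could not be fitted, because LC190 alone had at least 5 wells of each kind. On LC190 the 9 Pf4-led members had 173 CPM (counts scaled by the total of the plate and group) of Gata2 and a median CD150 percentile of 77.6, and the 20 Itga2b-led members had 179 CPM and a percentile of 59.9. The median Dach1-GFP percentile was 32.6 in the Pf4-led and 78.4 in the Itga2b-led members of LC190, so the Pf4-led median lay below the middle of that plate. Over all plates the medians were 79.8 in the 24 Pf4-led and 83.5 in the 81 Itga2b-led members. They were 52.8 and 83.5 on LC plates, and 90.6 and 82.1 on LCE plates. The LC190 values come from 1 plate, and none of these values has a test.

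The values at the edge of the rule were close together. The 49 wells with a sum of 3, just inside, had 168 CPM of Gata2, and the 123 wells with a sum of 2, just outside, had 133 CPM. The median Dach1-GFP percentile was 75.9 inside and 71.7 outside, and the median CD150 percentile was 58.2 inside and 55.3 outside. The 1933 wells with neither transcript, and under 3 erythroid counts, had 79.0 CPM of Gata2 and a median Dach1-GFP percentile of 45.3. Median counts per well were 12905 at a sum of 3, 11096 at 2 and 8105 at 0.

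Free RNA can place Pf4 or Itga2b counts in wells of other cells. Among 146 wells with at least 3 counts of the B lineage genes Cd79a, Cd79b, Vpreb1 and Igll1, 12.3% had an Itga2b count and 6.85% a Pf4 count, against 21.97% and 8.21% of the other 2581 wells, at median depths of 8332 and 8884 counts. A sum of Pf4 and Itga2b of 3 or more was reached by 3.42% of the B lineage wells (exact 95% interval 1.12% to 7.81%) and by 4.53% of the others (3.76% to 5.41%). The intervals overlap, and a share above this background was not shown. They treat wells as independent and do not match plates, though 7.18% of LC and 1.76% of LCE wells reached the minimum. The others also include the 12 erythroid-primed wells that reached the minimum and are not members. The 2 shares therefore cannot tell how far the members stand above such a background. 5 of the 110 members were such B lineage wells. How many members carry these transcripts from free RNA was not tested.

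The label was checked against markers of megakaryocytes and platelets that the rule did not use. Gata2, the marker given beside the rule genes, was detected in 78.2% of members and 47.1% of the rest. Ppbp and Tubb1, defining genes of mature platelets, had no count in members, against 9 counts and 1 count in the rest, a level too low to be compared at the members' depth. The platelet glycoprotein genes Gp1ba, Gp1bb and Gp5 had 10, 18 and 16 counts over all members, against 16, 13 and 68 over the much larger rest, and Vwf had 24 counts in members against 63 in the rest. Mature platelet markers made at most 0.123% of the counts of any member. Pooled over plates, Gp1bb made 11.6 CPM in members and 0.488 CPM in the rest, Treml1, a platelet granule receptor gene, 7.70 and 0.639 CPM, Cavin2, a caveolar coat protein gene, 14.1 and 2.03 CPM, and Gp5 10.3 and 2.55 CPM. Few members held these transcripts: Gp1bb was detected in 8 members, Treml1 in 7, Cavin2 in 10 and Gp5 in 10. Members had no count of Gp1bb, Treml1 or Gp5 on 3 of 8 plates each, and none of Cavin2 on 1. Plate LC190 gave 9 of the 18 Gp1bb counts of members, 5 of 12 for Treml1, 12 of 22 for Cavin2 and 7 of 16 for Gp5. The pooled values thus rest on few wells and do not describe most members. These genes were too low to test.

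Sorted proteins set the members apart on the channels that the rule did not use. The median Dach1-GFP percentile within the plate was lowest at 47.5, with a median over plates of 83.7 and a highest value of 97.9 in members, against a lowest of 47.9, a median of 49.0 and a highest of 50.3 in the rest. CD150, encoded by Slamf1 and carried by long-term stem cells and megakaryocyte progenitors, had member percentiles of 56.0, 74.2 and 95.7 (lowest, median and highest), against a lowest of 48.4 and a median of 49.3 in the rest. On 7 of 8 plates for GFP and on all 8 for CD150 the members lay above the rest. The exception for GFP was LCE407. The highest GFP value was that of LCE408, where it is the value of 1 member well. The mean difference, members minus rest, was 31.9 ± 16.1 percentile points for Dach1-GFP (exact sign-flip permutation test over 8 plates, two-sided p = 0.016, adjusted p = 0.047) and 26.5 ± 15.8 for CD150 (exact permutation p = 0.0078, adjusted p = 0.047; SD, n = 8 plates).

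cKit, the stem cell factor receptor, was higher in members and CD135, the FLT3 ligand receptor, was lower. Member percentiles of cKit were 55.0, 67.8 and 96.1 (lowest, median and highest), against a lowest of 49.1 and a median of 49.6 in the rest, with members higher on 8 of 8 plates. Member percentiles of CD135 were 2.38, 33.2 and 52.4, against 50.1, 51.1 and 52.1 in the rest, with members lower on 7 of 8 plates. The mean difference was 21.9 ± 14.3 points for cKit (exact permutation p = 0.0078, adjusted p = 0.047) and -24.8 ± 18.8 points for CD135 (exact permutation p = 0.016, adjusted p = 0.047; SD, n = 8 plates). The 8 plates allow no p below 0.0078, and 12 channels were tested together. LCE408 counts as a full plate in these tests and means with 1 member well. That well gave the highest cKit and the lowest CD135 member percentile. Without any 1 plate none of these 4 channels passed, with adjusted exact permutation p of 0.062 to 0.094, and none passed on the 4 LC or the 4 LCE plates alone. The differences on LCE and LC plates were 32.2 and 31.7 points for Dach1-GFP, 34.2 and 18.8 for CD150, 32.8 and 11.02 for cKit, and -37.6 and -12.1 for CD135.

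**Figure D2:**
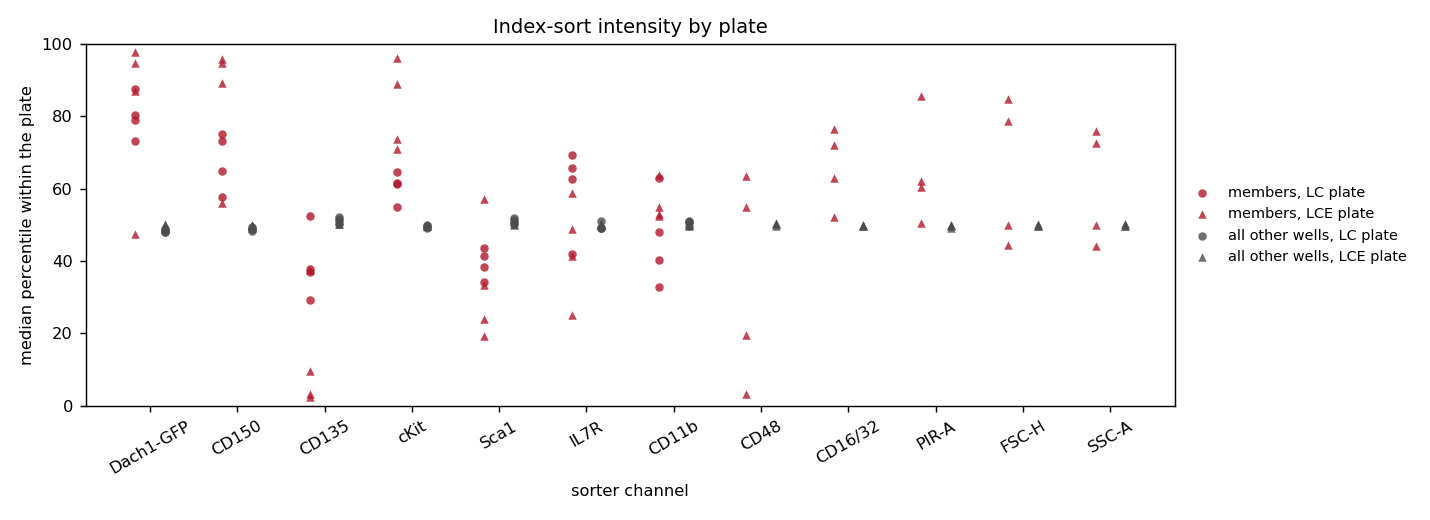
Median percentile of the sorter's intensity within each plate for members (red) and for all other kept wells (grey), 1 point per plate, circles for LC and triangles for LCE plates; CD48, CD16/32, PIR-A and scatter were used on the 4 LCE plates. Members lie above the rest on all 8 plates for CD150 and cKit, and below it on 7 of 8 for CD135. The member point of LCE408 is 1 well.

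Sca1 did not pass the threshold: its mean difference was -14.4 ± 12.0 points, lower in members on 7 of 8 plates (exact permutation p = 0.023, adjusted p = 0.056). IL7R and CD11b differed by 1.73 ± 15.7 and 0.804 ± 11.2 points (exact permutation, adjusted p = 0.82 for both). On the 4 LCE plates, where no exact permutation p can pass the threshold, CD16/32 and PIR-A were higher in members on 4 of 4 plates, by 16.2 ± 10.7 and 15.1 ± 15.2 points (SD, n = 4 plates; adjusted p = 0.21 for both, exact permutation test). CD48 differed by -14.9 ± 28.8 points, lower on 2 of 4 plates. Members were deeper wells than the rest; against the 3 wells of the same plate nearest in total count to each member, the differences were 28.2 for Dach1-GFP, 17.04 for CD150, 18.2 for cKit and -21.2 for CD135, while that for CD16/32 turned to -2.38. Dach1-GFP and CD150 did not pass in that comparison (exact permutation test, adjusted p = 0.062 and 0.14).

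The channels were also combined as gates at the plate medians. On LCE plates 77.3% of 22 members were above the plate median for CD150 and below it for CD135, against 27.6% of 1332 other wells, and on LC plates 51.1% of 88 members, against 29.9% of 1273. Among those LCE members, 9 were below and 8 above the plate median of CD48, the SLAM protein that separates stem cells from multipotent progenitors. The members were thus found among both CD48-low and CD48-high cells of this gate. Not all members fell in these gates: on LC plates 15.9% of members had low CD150 and high CD135, against 32.3% of the rest.

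Across all genes, summed counts of members and rest were compared on the same 8 plates, leaving out the 5 rule genes. Of 10491 tested genes, 6 were higher in members (0.0572% of those tested) and 10 were lower (0.0953%) at an adjusted p under 0.05 in edgeR's quasi-likelihood test; the median log2 difference of all tested genes was -0.07. Under DESeq2's size factors within edgeR, 10 were higher and 11 lower, so the share of higher calls was 47.6% against 37.5%. DESeq2 itself called 5 higher and 3 lower, all among the 16. Without LC189, 8 genes were called, 7 of them among the 16; without LCE408, the plate with 1 member, 23 were called, including all 16. Against the rest of nearest total count 8 were called, 6 of them among the 16, with 4009 genes tested.

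Gata2, the GATA factor of early megakaryocyte, mast and stem cells, was higher in members on 8 of 8 plates. Its CPM was 90.1, 149 and 271 in members (lowest, median, highest), against 72.6, 95.7 and 102 in the rest. On LCE408 its member value, 143 CPM, was 1 count in the 1 member well. The groups overlapped at their edges, and the log2 difference was 0.80 ± 0.16 (SE; adjusted p = 0.0015). With each well thinned to 3000 counts, 35.5% of members and 23.3% of the rest had a Gata2 count, and the gene did not pass in the thinned fit (adjusted p = 0.52), without the plate block (adjusted p = 0.32) or without LC187 (adjusted p = 0.16).

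Apoe, which encodes the lipid carrier apolipoprotein E and marks part of the stem cell compartment, was also higher on 8 of 8 plates. It had 54.1, 147 and 286 CPM in members, against 35.6, 55.6 and 66.3 CPM in the rest (lowest, median, highest). The highest member value was 2 counts in the 1 member well of LCE408, and the lowest was 3 counts on LCE407. The log2 difference was 1.13 ± 0.19 (SE; adjusted p = 1e-05), and it did not pass in the thinned fit (adjusted p = 0.70) or on LCE plates alone (0.92, adjusted p = 0.78).

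Dach1 RNA, like GFP, was higher in members on 7 of 8 plates, but the exception was another plate. Members had 0, 63.7 and 108 CPM of Dach1, against 12.4, 24.96 and 41.5 CPM in the rest; the plate at 0 was LCE408, with its 1 member, whose GFP percentile was 97.9. On LCE407, where GFP was not higher, Dach1 RNA was 72.1 CPM in members and 16.995 CPM in the rest. The log2 difference was 1.05 ± 0.25 (SE; adjusted p = 0.021), and the call was lost with DESeq2 (adjusted p = 0.056) and without members holding B lineage counts (adjusted p = 0.12). It was also lost without LC187, LC189, LC190 or LCE409 (adjusted p of 0.062 to 0.27). Lrrc8b, a subunit of volume-regulated anion channels, was higher on 8 of 8 plates by 1.34 ± 0.30, and the linker histone gene H1fx on 6 of 8 by 1.19 ± 0.27 (log2, SE; adjusted p = 0.0087 for both). The Lrrc8b call was lost without LC187, LC189 or LC190 and the H1fx call without LC188, LC189 or LC190 (adjusted p of 0.070 to 0.21). H1fx was named after its values were seen, as were Gpr171 and Igkc below.

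**Figure D3:**
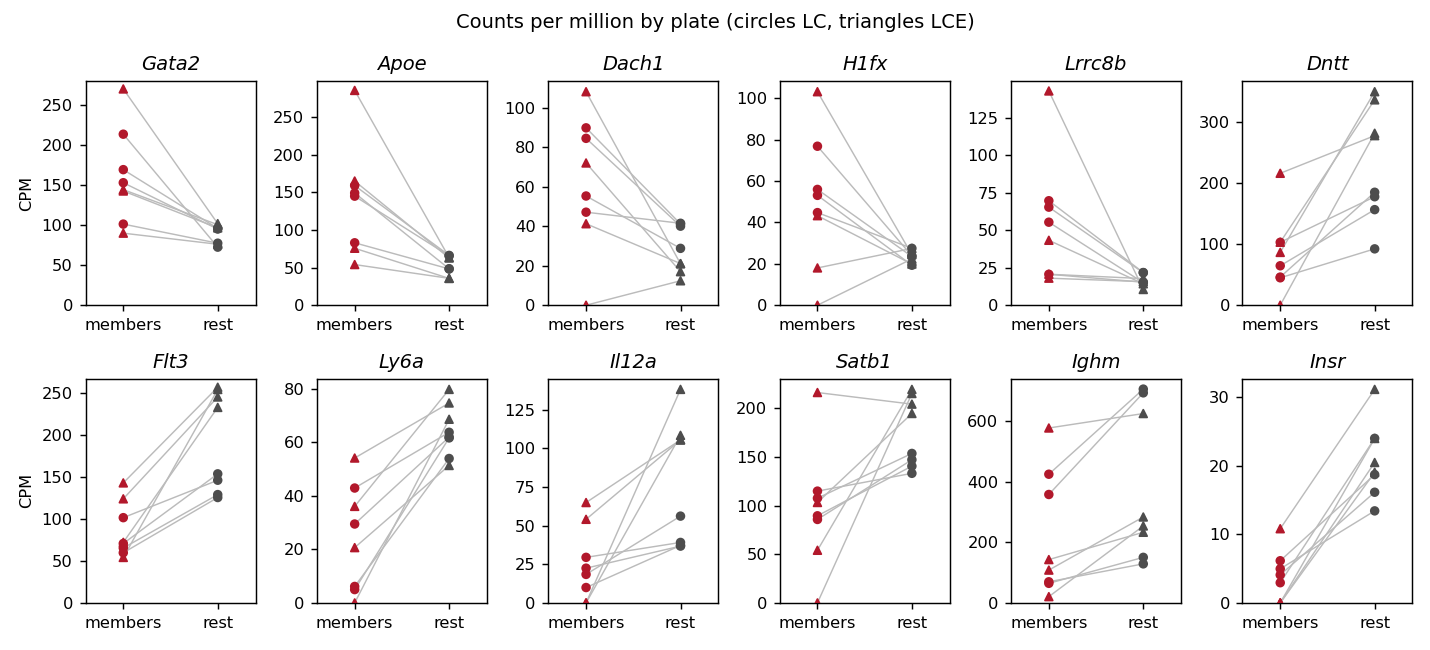
CPM of 12 genes in members (red, left) and in the rest (grey, right), 1 line per plate, circles for LC and triangles for LCE plates, each axis from 0. Gata2 is higher in members on all 8 plates, Dntt and Flt3 are lower on all 8, and the groups do not overlap for Insr.

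Dntt and Flt3, genes of lymphoid priming, were lower in members than in the rest. Their difference from the erythroid-primed wells, compared below, did not pass. Dntt, which encodes the DNA polymerase that adds bases at antigen receptor joins, had 0, 75.6 and 216 CPM in members, against 92.4, 232 and 350 CPM in the rest (lowest, median, highest), lower on 8 of 8 plates. Its log2 difference was -1.35 ± 0.18 (SE; adjusted p = 7.5e-11). Flt3, the gene of CD135, had 54.1, 71.4 and 143 CPM in members, against 125, 193 and 257 CPM in the rest, also lower on 8 of 8 plates. Its log2 difference was -1.14 ± 0.18 (SE; adjusted p = 2.7e-07), -0.91 on LC plates and -1.86 on LCE plates. Dntt and Flt3 passed in the thinned fit as well (adjusted p = 0.0013 and 0.00045). The 0 CPM of Dntt and the 143 CPM of Flt3 in members were those of LCE408, with its 1 member well.

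Of the 18 tested genes of the lymphoid priming list, 5 were lower and none was higher, with a median log2 difference of -0.60 beside -0.07 over all genes; the other 13 did not pass. Beside Dntt and Flt3 these were Ighm, transcribed early in the heavy chain locus (-0.97 ± 0.16, adjusted p = 1.2e-06), Il12a, a cytokine subunit gene (-1.18 ± 0.27, adjusted p = 0.0087), and Satb1, a chromatin organizer of lymphoid progenitors (-0.70 ± 0.17, adjusted p = 0.022). Satb1 was lower on 7 of 8 plates, and Ighm and Il12a on 8 of 8. DESeq2 called neither Il12a nor Satb1 (adjusted p = 0.35 and 0.55); Il12a was lost without LC189 or LCE410, and Satb1 without LC187, LC189, LC190 or LCE409 (adjusted p of 0.062 to 0.27). Without the plate block Ighm had an adjusted p of 0.64, and against the rest of nearest total count 0.51. Rag1, a recombinase gene, had no count in members, against 190 counts in the rest, and was not tested. The gene lists were chosen with earlier results of these data known, so the direction of this list is not independent support.

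Ly6a, the gene of Sca1, was lower on 8 of 8 plates, with 0, 25.1 and 54.1 CPM in members, against 51.3, 62.8 and 79.7 CPM in the rest (log2 difference -1.33 ± 0.27, SE; adjusted p = 0.0014). DESeq2 gave it an adjusted p of 0.10, and without LC189 it was 0.073. The 0 CPM of Ly6a in members was that of LCE408, with its 1 member well. Pou2f2, an octamer-binding factor of B cells, was lower by -0.77 ± 0.19 (adjusted p = 0.045), and Insr, the insulin receptor gene, by -2.13 ± 0.52 (adjusted p = 0.027) with 7 counts over all members. Gpr171, a receptor gene, was lower on 6 of 8 plates (-1.10 ± 0.26, adjusted p = 0.024). Pou2f2, Insr and Gpr171 were each lost with DESeq2 (adjusted p = 0.55, 0.55 and 0.85) and without any of several single plates: all but LC190 and LCE408 for Pou2f2, all but LC187 and LCE408 for Insr, and all but LC190, LCE407 and LCE408 for Gpr171. Igkc, the kappa light chain gene, differed by -1.26 ± 0.18 (adjusted p = 1.1e-08), but by 0.25 (adjusted p = 0.94) against the rest of nearest total count. Without B lineage wells in the rest, its adjusted p was 0.31; the B lineage list as a whole had 0 to 595 summed CPM in members, against 133 to 580 in the rest.

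**Figure D4:**
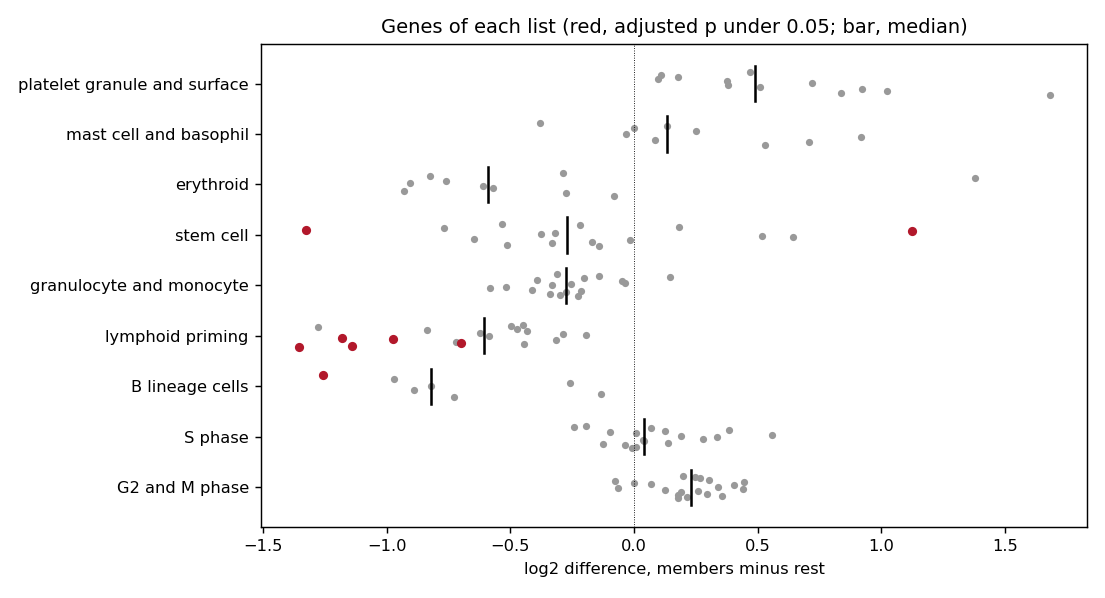
Log2 difference, members minus rest, of the tested genes of 9 lists, 1 point per gene, red for an adjusted p under 0.05 and a bar at the list's median. All 18 tested lymphoid priming genes lie below 0, 5 of them red, and all 12 tested platelet genes lie above 0, none of them red. Of all 10491 tested genes, 4085 lie above 0. The platelet genes passed the filter on low counts partly through the group where they are high, so their direction is not independent of it. The lists were chosen with earlier results of these data known.

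Among platelet granule and surface genes, 12 of 32 were tested and none passed, with a median log2 difference of 0.49 beside -0.07 over all genes. The closest to the threshold were Cd9, a tetraspanin of platelets (1.02 ± 0.27, adjusted p = 0.074), and Gp9, a subunit of the von Willebrand factor receptor (1.68 ± 0.45, adjusted p = 0.085). Genes of this kind pass a filter on low counts partly through the group where they are high, so the 12 do not stand for the list; the untested genes held few counts. Of 20 tested megakaryocyte transcription factors none passed as lower, and Gata2 was among those that passed as higher (median 0.07). By direction alone 13 of the 20 lay above 0 and 7 below. Zfpm1, the GATA cofactor FOG1, had a log2 difference of 0.59 ± 0.23 (adjusted p = 0.67), and Gfi1b, a repressor of the same lineages, 0.75 ± 0.41 (adjusted p = 0.86).

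No gene of the thrombopoietin signalling list passed, of 18 tested (median -0.06). The transcript of cKit, Kit, differed by 0.02 ± 0.14 (adjusted p = 0.99), although the protein was higher in members. Slamf1, the transcript of CD150, was too low to test, with a count in 11 of 110 members and 49 of 2617 other wells. Of the stem cell list, Apoe was higher and Ly6a lower among 16 tested (median -0.27); Hlf and Mecom, stem cell factors, had log2 differences of -0.14 ± 0.14 and -0.51 ± 0.30 (adjusted p = 0.93 and 0.88).

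Of the lists of mast, erythroid, myeloid, B lineage, macrophage and endothelial genes, the B lineage list alone held a called gene, Igkc. Of mast cell and basophil genes 9 were tested (median 0.13), of erythroid genes 10 (median -0.59) and of granulocyte and monocyte genes 17 (median -0.27). Slc18a2, the monoamine transporter of mast cells and platelets, had a log2 difference of 0.92 ± 0.29 (adjusted p = 0.38). Summed over the whole list, mast cell and basophil genes made 870 to 2044 CPM in members, against 945 to 1287 CPM in the rest, macrophage genes 0 to 133 against 16.995 to 71.3, and endothelial genes 0 to 186 against 144 to 237. Their part in the differences was not tested. All 20 G2 and M phase genes were tested and none passed (median 0.23), nor did any of 18 S phase genes (median 0.04) or of 14 endomitosis and cyclin genes (median -0.02). On LC plates alone 28 of 12381 tested genes passed in edgeR, 3 of them from these lists. These were the proliferation marker gene Mki67 (0.40, adjusted p = 0.038) and the chromatin protein gene Hmgb2 (0.48, adjusted p = 0.0017). The kinase gene Cdk6 was the third (0.27, adjusted p = 0.008). On LCE plates alone the log2 differences of Mki67, Hmgb2 and Cdk6 were -0.62, -0.12 and 0.04, and none passed. Of 7 tested immediate early and heat shock genes and 9 interferon-stimulated genes none passed (medians -0.19 and -0.11).

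Among wells above their plate's median CD150, the members were compared with wells of a more similar gate. This used 72 members and 947 other wells of 6 plates; LCE407 and LCE408 had fewer than 5 such members. The median CD150 percentile of these members was 66.0 to 97.1, against 74.0 to 75.4 for the rest, so CD150 itself was not fully matched. Of 8657 tested genes, 7 were higher (0.0809%) and 4 lower (0.0462%); without the plate block 2 were called, both higher, and with a pooled filter of 10 CPM 9 were higher and 12 lower.

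Apoe and Gata2 were again higher, by 0.92 ± 0.20 and 0.79 ± 0.17 (log2, SE; adjusted p = 0.024 for both), each on 6 of 6 plates. Gata2 had 117, 149 and 277 CPM in members (lowest, median, highest), against 75.6, 99.5 and 120 CPM in the rest, so the groups overlapped at their edges. Of the 32 platelet granule and surface genes 9 were tested here, and 2 passed. Cd9 was higher by 1.37 ± 0.31 (adjusted p = 0.038) on 5 of 6 plates, LC188 being the exception. Plate LC190 gave 42 of its 79 counts in members. Nrgn, a calmodulin-binding protein abundant in platelets, was higher by 0.68 ± 0.15 (adjusted p = 0.026), on all plates but LC189. The filter on low counts holds here too, so the 9 do not stand for the list. H1fx and Dapp1, an adaptor of phosphoinositide signalling, were higher by 1.62 ± 0.30 and 0.59 ± 0.14 (adjusted p = 0.0026 and 0.048). Dntt (-1.17 ± 0.20), Flt3 (-1.09 ± 0.21), Gpr171 (-1.71 ± 0.39) and H2afy, which encodes the histone variant macroH2A (-0.35 ± 0.08), were lower (adjusted p = 0.00056, 0.0034, 0.038 and 0.045). Members and the rest here are subsets of the wells compared above, so the shared genes are not independent evidence. On LC plates alone 6 genes were called, 2 of them among the 11, H1fx included; after thinning 3 were called, 1 of them among the 11.

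The erythroid-primed wells were taken as the lineage nearest to the members, and this nearness was not measured. The comparison used 88 members and 74 erythroid-primed wells of the 4 LC plates, since no LCE plate had 5 of each. Of 5574 tested genes, 70 were higher in members (1.26%) and 72 were lower (1.29%). DESeq2 called 14 higher and 34 lower, and without the plate block 18 were higher and 45 lower. After thinning to 3000 counts 5 were higher and 2 lower, of 1114 tested.

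Of the 11 tested erythroid genes, 10 were lower in members and none was higher, with a median log2 difference of -3.73 beside 0.00 over all genes; the erythroid-primed wells were selected on Car1, Gata1 and Klf1, so this direction is close to what the rule fixed. Ermap, an erythroblast membrane protein gene, had 2.50 ± 2.97 CPM in members and 173 ± 65.0 CPM in erythroid-primed wells (SD, n = 4 plates; log2 difference -5.68 ± 0.46, adjusted p = 2e-10). The Rh-associated glycoprotein gene Rhag and the water channel gene Aqp1 were lower by -5.42 ± 0.65 and -4.02 ± 0.39 (adjusted p = 7.1e-07 and 1.8e-08). Mt2, a metallothionein, Ces2g, a carboxylesterase, and Atp1b2, a sodium pump subunit, were lower by -4.98 ± 0.38, -4.71 ± 0.45 and -4.29 ± 0.48 (adjusted p = 1.3e-10, 1.4e-08 and 2.3e-07). Sphk1, the sphingosine kinase gene, had 0 counts in members and 113 in erythroid-primed wells, at least 39.3-fold lower in members against a floor of 3 counts over the group. Slc38a5, an amino acid transporter gene, had 0 counts against 64, at least 22.2-fold lower.

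**Figure D5:**
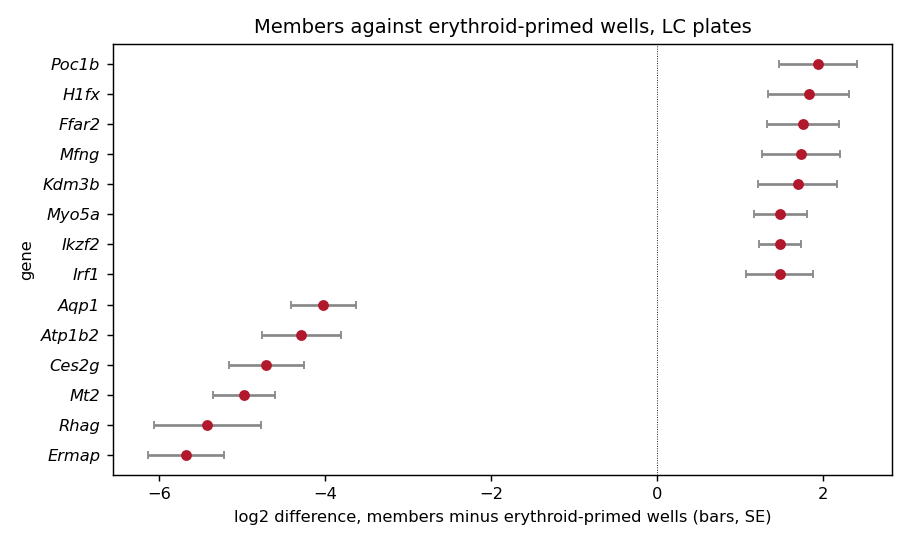
Log2 difference, members minus erythroid-primed wells, with SE, of the genes with the largest differences past the threshold on the 4 LC plates; Sphk1 and Slc38a5, with 0 counts in members, are left out. Ermap is lowest at -5.68 and Poc1b highest at 1.94.

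The genes with the largest differences above 0 differed by less than those below 0. Ikzf2, the Helios factor of stem and lymphoid cells, had 162 ± 58.2 CPM in members and 55.9 ± 12.5 CPM in erythroid-primed wells (SD, n = 4 plates), with no overlap (log2 difference 1.48 ± 0.25, adjusted p = 0.00042). Poc1b, a centriole protein gene, Ffar2, a short-chain fatty acid receptor gene, and Mfng, a Notch-modifying Fringe enzyme, were higher by 1.94 ± 0.47, 1.76 ± 0.44 and 1.74 ± 0.47 (adjusted p = 0.019, 0.022 and 0.039). H1fx, Myo5a, a motor of vesicle transport, and Irf1, an interferon response factor, were higher by 1.83 ± 0.49, 1.48 ± 0.32 and 1.48 ± 0.41 (adjusted p = 0.036, 0.0065 and 0.040), as was the histone demethylase gene Kdm3b by 1.69 ± 0.48 (adjusted p = 0.050 after rounding). Of these, DESeq2 did not call Poc1b, Ffar2, Mfng, H1fx, Myo5a or Irf1 (adjusted p of 0.096 to 0.27). Hlf and Cd34, genes of stem and progenitor cells named after their values were seen, were higher by 1.39 ± 0.24 and 1.02 ± 0.18 (adjusted p = 0.00035 and 0.00067). Gata2 differed by 0.39 ± 0.26 (adjusted p = 0.53) and did not pass. Dntt, Flt3, Apoe, Dach1 and Ly6a, called against the rest, did not pass here either. Their log2 differences were -0.02, 0.45, 0.53, 0.75 and -0.86 (edgeR adjusted p = 0.99, 0.59, 0.33, 0.37 and 0.48). Mean CPM over the 4 plates was 64.7 in members and 62.2 in erythroid-primed wells for Dntt, and 74.3 and 50.9 for Flt3. These genes were thus not shown to separate the members from erythroid-primed wells. Of 15 tested granulocyte and monocyte genes 3 were higher in members, among them the granule protease genes Prtn3 (0.53 ± 0.11, adjusted p = 0.0063) and Ctsg (0.52 ± 0.13, adjusted p = 0.020), each on 4 of 4 plates, and their part in the other differences was not tested. Zfpm1 was lower in members by -1.10 ± 0.28 (adjusted p = 0.027).

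The difference between members and rest was compared between the plate sets with an interaction term. Of 10491 tested genes, 13 passed (0.124%), all with a lower difference on LCE plates, and the median over all genes was -0.34. 8 of them were genes of the H2A histone cluster on a shared locus, which are near-identical and can share counts: Hist1h2ap, for example, was higher in members by 0.56 on LC plates and differed by -0.72 on LCE plates (adjusted p = 0.77), an interaction of -1.29 ± 0.22 (adjusted p = 2e-05). DESeq2 called none of the 13, with 310 genes at an unadjusted p under 0.05, against 964 in edgeR. The LCE members' summed counts were 7000 to 92400 per plate, against 200978 to 489399 for LC members. With every well thinned to 3000 counts, 9 genes passed, all lower on LCE plates and 5 of them among the 13, with a median of -0.55 over all genes.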

How the data were processed

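Counts per gene and well were deposited by the authors for 8 plates of 383 wells; per the labels the libraries were made by CEL-seq2. The submitters' processing notes name the build GRCh38, a human assembly, while the identifiers are mouse Ensembl ones (27249 of 27318 matched to symbols), so no coordinates come from the files. The aligner, the counter and whether molecular tags were collapsed: not given in the sources used here. Sorter values are linear fluorescence intensity, per the file headers, and reach below 0. Sort records of the LCE plates were joined to wells by barcode, leaving 13 unmatched. Forward scatter height was used.

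Wells needed 1000 counts and 500 genes. Spike-in counts were left out. No doublet caller was run, since each well received 1 sorted cell. The members and the gene lists were chosen with earlier results of these data known. Counts were summed per plate and arm and tested with edgeR 4.0.16 in R 4.3.3 (genes kept by filterByExpr, TMM scaling, a plate term, the quasi-likelihood test, Benjamini-Hochberg adjustment over all tested genes, threshold 0.05); both arms of a plate pair by design. The rule genes were not tested. DESeq2 1.42.0 was an alternative. CPM are counts scaled to the total of a plate and arm. Proteins were compared as median percentiles within the plate with an exact two-sided sign-flip permutation test over plates (Python 3.11.15), adjusted over 12 channels. Summed counts per plate were 7000 to 489399 in members and 2084575 to 4707202 in the rest. Genes were named by rule: rule genes and Gata2, genes of sorted proteins, called genes of one sign on every plate, list genes of smallest adjusted p, and the 8 largest each way in the other comparisons. Both tests were checked on simulated data. Some genes are not reported here.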

Additional observations from a re-analysis of the deposited data

Results flagged for a closer look

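In 49 groups of plates searched for a value far from the others, 4 were found, where chance gives about 1 in 20. On LCE407, with 7 members, Gpr171 had 126 CPM and Igkc 415 CPM in members, each the highest of the 8 plates. On the same plate the members minus rest difference of Dach1-GFP was -2.80 percentile points, the lowest of the 8. On LCE408, whose members are 1 well, Lrrc8b had 143 CPM in members, the highest of the 8 plates, which is 1 count in a well of 7000 counts.

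The difference between members and rest was lower on LCE than on LC plates for 13 genes by the test of the interaction in edgeR. For the H2A genes the interaction (log2, LCE minus LC) was -1.21 for Hist1h2ac, -1.26 for Hist1h2ae, -1.17 for Hist1h2ag, -1.34 for Hist1h2ah, -1.70 for Hist1h2aj, -1.29 for Hist1h2an, -1.62 for Hist1h2ao and -1.29 for Hist1h2ap. For the others it was -3.36 for BC035044, -1.98 for Cnot6, -1.36 for Gm11336, -1.07 for Gm2534 and -1.13 for Tmsb10. Their causes were not tested.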

How the results depend on the processing

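Against 16 genes called between members and rest, 8 were called with DESeq2 and 8 with no replicate block, 28 on LC plates alone, 5 on LCE plates alone, 5 after thinning to 3000 counts, 27 with no filter, 8 against the rest of nearest total count, 32 with the rule at 2 counts, and 3 with Pf4 alone; leaving out each plate gave 8 to 23. Against 142 in the erythroid comparison, DESeq2 gave 48, no replicate block 63 and thinning 7. Against 11 among CD150-high wells, no replicate block gave 2, the 10 CPM filter 21, LC plates 6, LCE plates 29 and thinning 3. Against 13 interaction genes DESeq2 gave 0 and thinning 9. The 4 called proteins became 0 on LC plates, LCE plates, at 5 counts and in each fit without 1 plate, where fewer plates raise the smallest p, and 2 against the rest of nearest total count.

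Directions turned for Igkc (0.25, nearest total count), and, in percentile points, for CD11b (-4.55 on LC plates, -1.97 at nearest total count, lowest -1.12 without 1 plate and highest 3.49), IL7R (-6.77 on LCE plates, -0.100 at nearest total count, -0.602 at 2 counts, -0.915 by mean percentile, -0.925 to 5.59 without 1 plate), CD16/32 (-2.38), FSC-H (-4.74) and SSC-A (-13.4) at nearest total count, and CD48 (5.82 at 2 counts). The causes were not tested. Of 475 other gene values between members and rest, 338 kept direction and side of the threshold. Removing the well of the highest rule count and members with B lineage counts was chosen after seeing the data and left 15 and 13 calls. The Pf4-led comparison and the erythroid one on LCE plates could not be fitted. Member sums on LCE plates were 7000 to 92400 counts.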
